A study of Mus musculus with 6 samples.

Results

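The AP-1 transcription factors and their basic leucine zipper (bZIP) relatives were examined in mouse bone marrow-derived macrophages. The 10 genes are Fos, Fosb and Fosl2, Jun, Junb and Jund, Atf3, Batf and Batf3, and the small Maf gene Maff, taken by gene name from the 57180 genes of the deposited count table. Cells came from wild-type mice aged 6 to 8 weeks and were grown in M-CSF at 20 ng/mL for 7 days. In the IL-4+CGRP group (3 libraries) they then received IL-4 at 20 ng/mL together with CGRP for 24 h, and in the IL-4 group (3 libraries) IL-4 alone. All libraries therefore share M-CSF and IL-4, and no culture without IL-4 was analysed here. CGRP is a neuropeptide of sensory nerves, and the comparison asks what it adds to IL-4.

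bZIP proteins bind DNA as dimers held together by a leucine zipper. Fos proteins cannot pair with each other and need a Jun partner, whereas Jun proteins also form dimers among themselves; these dimers bind the TRE and related sites. Atf3 and the Batf proteins join the same network and can occupy its sites without driving transcription as strongly, and small Maf proteins pair with factors such as NRF2 and BACH1. The CGRP receptor signals through cyclic AMP, whose effector CREB binds a related site, the CRE. In macrophages these factors are known as rapid responders to growth factors, stress and microbial products, so a measurement at 24 h is later than their classical peak of induction.

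Total counts per library ranged from 20088895 to 24060444. On the first principal component (37.6% of variance) IL-4+CGRP replicate 2 lay at 0.17, between -21.98 and -27.05 for IL-4+CGRP replicates 1 and 3 and 11.22 to 25.97 for the IL-4 libraries, so results that turn on it are also given without it. The macrophage markers Adgre1, Csf1r, Cd68, Itgam, Lyz2, Mertk and Fcgr1 summed to 13801 to 14068 CPM (the count scaled to library size with TMM factors) in IL-4+CGRP libraries and 13598 to 13828 CPM in IL-4 libraries, and 1 of the 7, Itgam, passed as higher. Of markers of other cell types, 0 passed in edgeR or by DESeq2 or limma-voom (1 dendritic cell, 1 T cell, 1 neutrophil, 1 mast cell or basophil and 2 fibroblast markers at an unadjusted p under 0.05), and summed levels without overlap between groups were seen for fibroblast markers (45.8 to 50.5 CPM in IL-4+CGRP and 40.2 to 43.7 CPM in IL-4 libraries), T cell markers (80.5 to 84.6 CPM in IL-4+CGRP and 71.2 to 79.7 CPM in IL-4 libraries), mast cell and basophil markers (4.64 to 5.10 CPM in IL-4+CGRP and 5.92 to 6.73 CPM in IL-4 libraries), and dendritic cell markers (5.63 to 6.38 CPM in IL-4+CGRP and 7.51 to 8.25 CPM in IL-4 libraries). When IL-4+CGRP replicate 2 was dropped, 2 macrophage markers were called higher and 1 lower, 1 fibroblast marker higher and 1 dendritic cell marker lower; with no count filter the same numbers of fibroblast and dendritic cell markers were called. Their part in the results was not tested. Since the labels do not tie replicate libraries to different mice or dishes, each p-value reflects library-to-library spread that may be technical. In these bulk samples fewer cells that express a gene and less RNA per cell cannot be told apart.

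Of the 10 genes, 9 passed the filter on low counts and were tested with all 13260 genes that passed it. Fosl2 rose, Atf3 fell and the other 7 did not pass the test (edgeR quasi-likelihood test, Benjamini-Hochberg adjusted p under 0.05). Across all tested genes 3.85% were called, 2.32% as higher and 1.54% as lower (307 and 204 genes, or 354 and 143 with libraries scaled by their totals alone). The median log2 fold change was -0.027 over the 9 genes and -0.0042 over all tested genes. IL-4+CGRP and IL-4 libraries did not overlap for 3 of the 9 (Fos, Fosl2 and Atf3), against 21% of all tested genes.

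**Figure D1:**
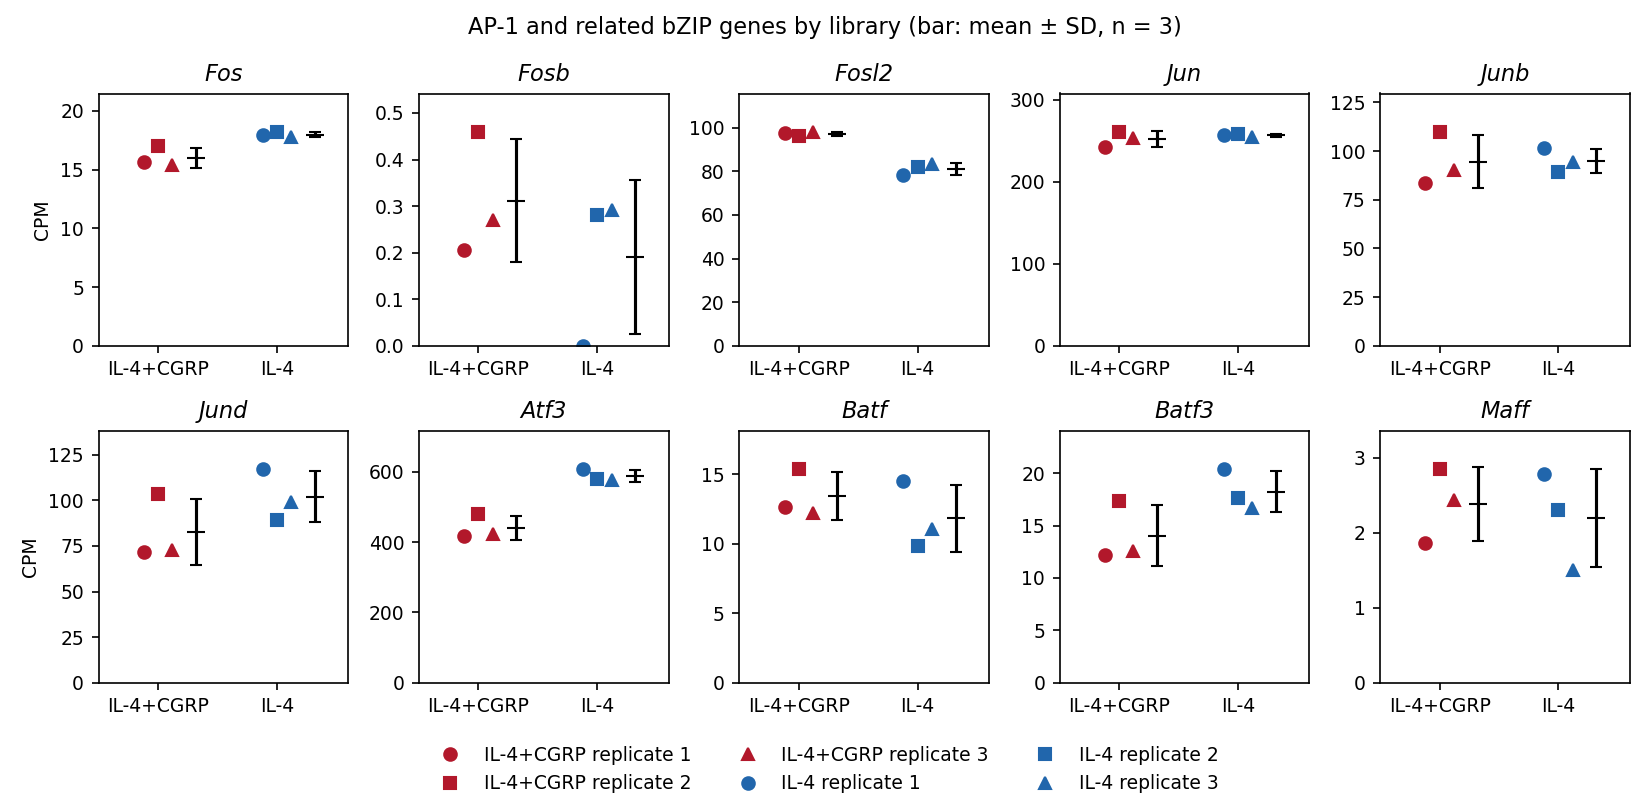
CPM of each gene in each library (points; circle, square and triangle for replicates 1, 2 and 3), with IL-4+CGRP in red left of IL-4 in blue, and the mean ± SD (n = 3) in black; every axis starts at 0. All 3 IL-4+CGRP libraries lie below all 3 IL-4 libraries for Atf3 and Fos and above them for Fosl2, and IL-4+CGRP replicate 2 is the highest of its group for 8 of the 9 tested genes.

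The promoters of the genes that passed the test, Atf3 and Fosl2, of the founding pair Fos and Jun, and of Maff, the gene with a complete CRE, are shown because cyclic AMP acts through such sites. RefSeq promoter windows (mouse build GRCm38.p6, 250 bases before to 50 bases after a start site) were matched for all 10 genes, 12 windows in all since Maff has 3. The last 150 bases before the annotated start are printed 5′ to 3′, with capitals for the CRE TGACGTCA or its half-site TGACG on either strand (CGTCA when read on the other strand).
Atf3 (chr1:191183334-191183483, minus strand): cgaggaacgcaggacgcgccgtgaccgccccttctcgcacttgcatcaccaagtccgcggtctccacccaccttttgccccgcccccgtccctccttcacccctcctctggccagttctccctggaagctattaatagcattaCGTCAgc
Fosl2 (chr5:32136322-32136471, plus strand): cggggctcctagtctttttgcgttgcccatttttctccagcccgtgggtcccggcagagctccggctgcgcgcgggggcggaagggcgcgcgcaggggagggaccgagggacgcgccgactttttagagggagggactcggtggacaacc
Fos (chr12:85473740-85473889, plus strand): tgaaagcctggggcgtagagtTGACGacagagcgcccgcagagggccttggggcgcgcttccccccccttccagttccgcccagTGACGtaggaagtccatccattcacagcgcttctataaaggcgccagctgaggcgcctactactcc
Jun (chr4:95052223-95052372, minus strand): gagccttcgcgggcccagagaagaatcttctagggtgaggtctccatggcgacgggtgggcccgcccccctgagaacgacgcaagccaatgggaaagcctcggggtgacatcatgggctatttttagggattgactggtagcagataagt
Maff (chr15:79347370-79347519, plus strand): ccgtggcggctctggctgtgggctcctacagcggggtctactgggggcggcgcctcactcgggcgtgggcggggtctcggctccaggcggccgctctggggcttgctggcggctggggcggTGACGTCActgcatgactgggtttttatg

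The complete CRE occurred in 1 of the 12 windows, that of Maff, 29 bases upstream of the start, and in 1.79% of 32851 RefSeq promoter windows. The half-site TGACG, which each CRE contains, occurred in 7 of the 12 windows and in 20.8% of all windows; the genes were Fos, Fosb, Junb, Atf3, Batf and Maff. In Fos it began 129 and 66 bases upstream, and in Atf3 the half-site on the other strand began 7 bases upstream. The TRE TGANTCA, the STAT6-type palindrome (TTC and GAA with 4 bases between) and the CArG box bound by SRF were found in 0 of the 12 windows, on either strand, and in 7.81%, 6.95% and 1.63% of all windows. Of the genes that passed the test, Atf3 thus has a half-site in this window and Fosl2 has none of these letters. Only exact letters were counted, and sites farther than 250 bases upstream were not searched, for Fos as for the others. A count of 0 therefore does not show that a promoter lacks such a site, and a match does not show that a factor binds.

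Atf3 (ENSMUSG00000026628) is a stress-induced factor that limits inflammatory gene expression in mouse macrophages. It was measured at 417, 480 and 422 CPM in IL-4+CGRP replicates 1 to 3, and at 608, 580 and 578 CPM in IL-4 replicates 1 to 3. Every IL-4+CGRP library was below every IL-4 library, with IL-4+CGRP replicate 2 nearest to them. The mean was 440 ± 35.1 CPM in IL-4+CGRP and 588 ± 16.8 CPM in IL-4 (SD, n = 3 each). Atf3 was 1.34-fold lower in IL-4+CGRP (log2 fold change -0.42 ± 0.06, SE; edgeR adjusted p = 0.00146). Its call held when any one library was left out, with log2 fold changes of -0.49 to -0.39 and edgeR adjusted p-values of 3.44e-07 to 0.0207.

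Batf3 (ENSMUSG00000026630) lies beside Atf3 on chromosome 1, with 1 protein-coding gene, Fam71a, between them in RefSeq. It is a factor that mice need to form cross-presenting dendritic cells. It measured 12.2, 17.4 and 12.5 CPM in IL-4+CGRP replicates 1 to 3, and 20.4, 17.6 and 16.6 CPM in IL-4 replicates 1 to 3. Only IL-4+CGRP replicate 2 reached into the IL-4 range. The log2 fold change was -0.38 ± 0.14 (SE; edgeR adjusted p = 0.215). Without IL-4+CGRP replicate 2 it was -0.56 and Batf3 passed as lower (edgeR adjusted p = 0.00191). Of 7 dendritic cell markers, 4 were tested and 0 passed in edgeR (1 at an unadjusted p under 0.05, and 0 by DESeq2 and limma-voom). With IL-4+CGRP replicate 2 dropped, and with no count filter, 1 of them was called lower, and Batf3 passed under both settings. Over all genes these settings called 950 and 434 lower, against 204 in the main fit. Batf3 also passed with the length and GC trend described below removed (edgeR adjusted p = 0.0162), where 0 dendritic cell markers were called. As given above, the summed level of these markers was lower in every IL-4+CGRP library than in every IL-4 library, and Xcr1, a defining marker, had 1 count in each library. The part of such cells in the Batf3 values was not tested.

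Batf (ENSMUSG00000034266), which pairs with Jun proteins and with IRF4 or IRF8 on composite sites, measured 12.7, 15.4 and 12.2 CPM in IL-4+CGRP replicates 1 to 3, and 14.5, 9.86 and 11.1 CPM in IL-4 replicates 1 to 3. The groups overlapped. The log2 fold change was 0.19 ± 0.15 (SE), with a 95% interval of -0.14 to 0.51 (edgeR adjusted p = 0.602). Of its partners, Irf4 measured 10.6 ± 0.756 CPM in IL-4+CGRP and 13.2 ± 0.955 CPM in IL-4 (SD, n = 3 each; edgeR adjusted p = 0.133). Irf8 measured 265 ± 10.7 CPM in IL-4+CGRP and 260 ± 5.52 CPM in IL-4 (SD, n = 3 each; edgeR adjusted p = 0.805). Both partner genes were looked up after the values were seen.

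Fosl2 (ENSMUSG00000029135) encodes FRA2, a Fos protein that lacks the strong activation domain of FOS. It measured 97.4, 96.2 and 98.1 CPM in IL-4+CGRP replicates 1 to 3, and 78.2, 81.8 and 83.2 CPM in IL-4 replicates 1 to 3. The groups did not overlap, and the IL-4+CGRP libraries lay close together. Fosl2 was 1.2-fold higher in IL-4+CGRP (log2 fold change 0.26 ± 0.05, SE; edgeR adjusted p = 0.0135). The size of the difference held when any one library was left out (log2 fold changes 0.24 to 0.27), but the call did not. On leaving out IL-4+CGRP replicates 1 and 3 in turn the edgeR adjusted p was 0.0832 and 0.0661, and for IL-4 replicates 1, 2 and 3 it was 0.105, 0.0773 and 0.0655. Fosl2 passed on leaving out IL-4+CGRP replicate 2 (edgeR adjusted p = 0.00209).

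Fos (ENSMUSG00000021250), the prototype immediate early gene and in mice a requirement for osteoclast formation, measured 15.7, 17.0 and 15.4 CPM in IL-4+CGRP replicates 1 to 3, and 17.9, 18.2 and 17.8 CPM in IL-4 replicates 1 to 3. The groups did not overlap, yet the gap was small. The log2 fold change was -0.17 ± 0.08 (SE), with a 95% interval of -0.35 to 0.01 (edgeR adjusted p = 0.363). Fosb (ENSMUSG00000003545), induced alongside Fos in activated cells, had 5, 10 and 6 counts in IL-4+CGRP replicates 1 to 3, and 0, 6 and 7 counts in IL-4 replicates 1 to 3. It was too low for the count filter of the main fit, and the count of 0 allows a level of up to 0.152 CPM in IL-4 replicate 1 (3 counts, counting error only).

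Jun (ENSMUSG00000052684), the partner of Fos, measured 242, 260 and 253 CPM in IL-4+CGRP replicates 1 to 3, and 257, 258 and 254 CPM in IL-4 replicates 1 to 3. The groups overlapped, and the log2 fold change of -0.03 ± 0.05 (SE; edgeR adjusted p = 0.828), with a 95% interval of -0.13 to 0.08, was the most narrowly bounded of the 9; with libraries scaled by their totals alone its sign turned (0.00018). Junb (ENSMUSG00000052837), often an antagonist of Jun, measured 83.6, 110 and 90.1 CPM in IL-4+CGRP replicates 1 to 3, and 101, 89.2 and 94.3 CPM in IL-4 replicates 1 to 3. It overlapped between groups, with a log2 fold change of -0.0077 ± 0.10 (SE), a 95% interval of -0.23 to 0.22 and an edgeR adjusted p = 0.977; its sign turned with library totals alone (0.019) and on leaving out IL-4+CGRP replicate 1 (0.069), IL-4+CGRP replicate 3 (0.022) or IL-4 replicate 1 (0.041). Leaving out IL-4+CGRP replicate 2 gave -0.13.

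Jund (ENSMUSG00000071076), the Jun gene that most resting cells express steadily, measured 71.8, 104 and 72.7 CPM in IL-4+CGRP replicates 1 to 3, and 117, 89.5 and 99.2 CPM in IL-4 replicates 1 to 3. IL-4+CGRP replicates 1 and 3 lay below every IL-4 library and replicate 2 lay within them. The log2 fold change was -0.30 ± 0.19 (SE; edgeR adjusted p = 0.535), and -0.50 without IL-4+CGRP replicate 2, where Jund passed as lower (edgeR adjusted p = 0.0455). Without IL-4 replicate 1 the log2 fold change was -0.19 (edgeR adjusted p = 0.786). An annotated gene on the opposite strand of Jund, Gm11175, had 64.3, 4.41 and 66.4 estimated counts in IL-4+CGRP replicates 1 to 3, and 0, 4.19 and 0 in IL-4 replicates 1 to 3. No source used here says whether counting used strand, and reads of the pair cannot be told apart; their summed level was 74.4, 104 and 75.6 CPM in IL-4+CGRP replicates 1 to 3 and 117, 89.6 and 99.2 CPM in IL-4 replicates 1 to 3. Junos, on the opposite strand of Jun, had 9.06 to 19.1 counts in every library, and Prdx2 overlaps Junb on the opposite strand with 2333 to 3070 counts.

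Maff (ENSMUSG00000042622), a small Maf without an activation domain, measured 1.86, 2.85 and 2.43 CPM in IL-4+CGRP replicates 1 to 3, and 2.78, 2.30 and 1.501 CPM in IL-4 replicates 1 to 3. The groups overlapped almost completely. The log2 fold change was 0.12 ± 0.26 (SE), with a 95% interval of -0.45 to 0.69 (edgeR adjusted p = 0.858), and its sign turned without IL-4+CGRP replicate 2 (-0.024) or IL-4 replicate 3 (-0.10). At 36 to 62 counts a library, this was the least precise of the tested genes.

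**Figure D2:**
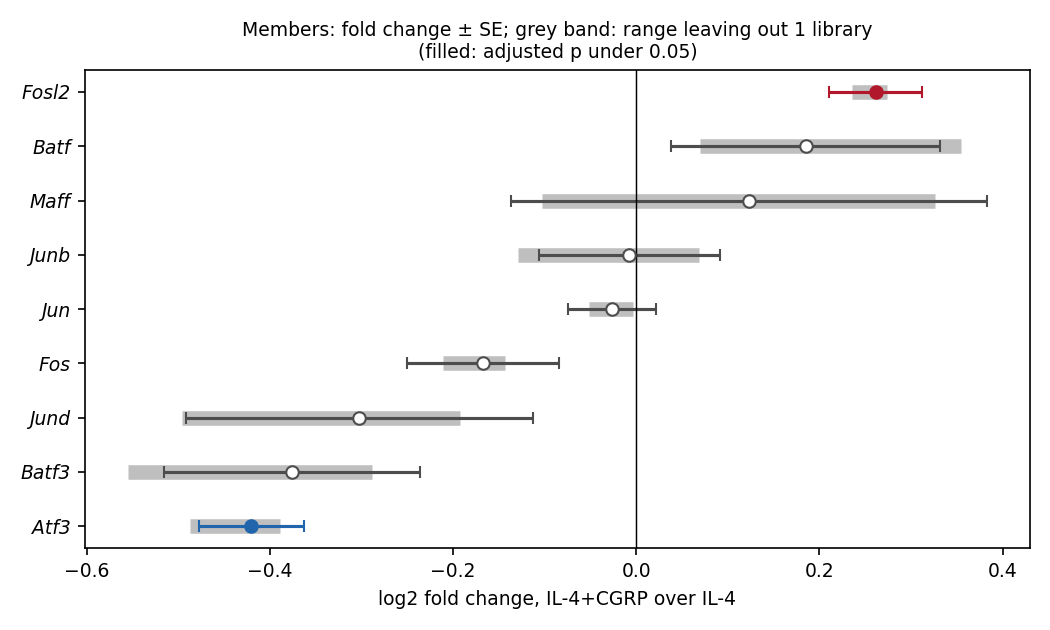
Log2 fold change, IL-4+CGRP over IL-4, of the 9 tested genes (points, with SE bars; filled where the edgeR adjusted p is under 0.05) and the range of values when 1 library at a time is left out (grey). Fosl2 at 0.26 and Atf3 at -0.42 are the filled points, and the grey ranges of Junb and Maff cross 0.

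IL-4+CGRP replicate 2 had the highest log2 CPM of its group for 8 of the 9 tested genes, all but Fosl2, and for 38.5% of all tested genes. Its log2 CPM minus the mean of replicates 1 and 3 was 0.52 for Jund, 0.49 for Batf3, 0.41 for Maff and 0.34 for Junb, and -0.023 for Fosl2. The longest annotated transcripts of these genes have a GC content of 67.1% for Jund, 62.6% for Junb, 60.7% for Batf3, 57.6% for Maff and 53.1% for Fosl2. The difference was 0.13 for Fos (51.9% GC), 0.195 for Atf3 (52.2%), 0.0741 for Jun (55.5%) and 0.305 for Batf (56.6%). Over the 454 tested genes with a GC content of at least 60%, replicate 2 was the highest of its group for 59%. Their median difference was 0.118, against -0.0125 over all tested genes and 0.305 over the 9 bZIP genes. An alternative added after seeing the data removed the trend of each library with gene length and GC content. The trend was fitted without a term for group, so any such trend that differed between the groups was removed with it. Jund (log2 fold change -0.38, edgeR adjusted p = 0.0456) and Batf3 (-0.36, edgeR adjusted p = 0.0162) then passed as lower beside Atf3, and Fosl2 passed as higher.

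**Figure D3:**
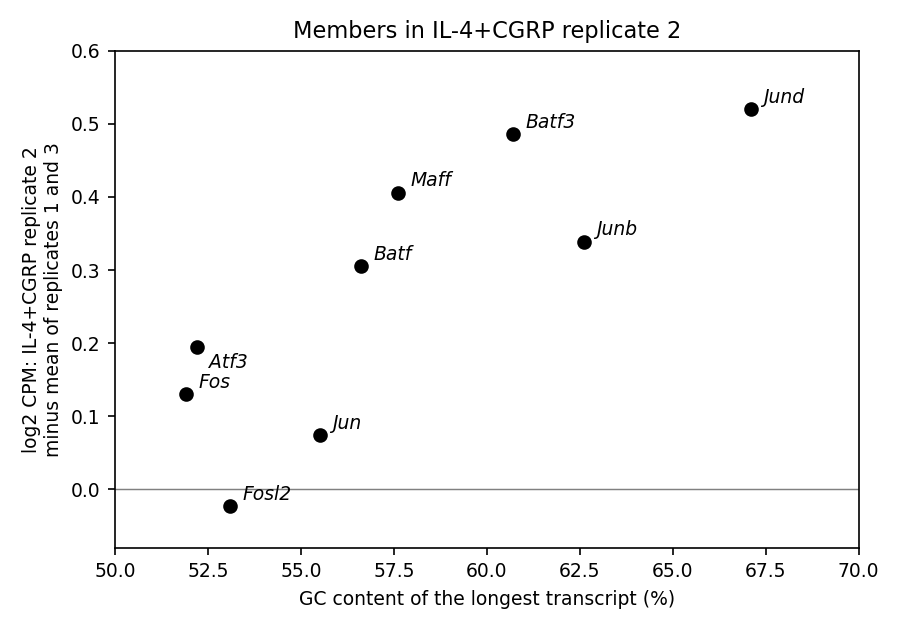
Log2 CPM in IL-4+CGRP replicate 2 minus the mean of IL-4+CGRP replicates 1 and 3 (vertical) against the GC content of the longest transcript in percent (horizontal), 1 point for each of the 9 tested bZIP genes. On the vertical axis the points run from -0.023 for Fosl2 at 53.1% GC to 0.52 for Jund at 67.1% GC. Fos and Atf3, which have the lowest GC content, lie above Fosl2 and Jun.

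Levels of different genes were compared as CPM per kilobase of the gene length listed in the table. Atf3 was the highest, at 222 ± 17.7 CPM per kb in IL-4+CGRP and 297 ± 8.48 CPM per kb in IL-4 (SD, n = 3 each). Jun followed with 79.0 ± 2.98 CPM per kb in IL-4+CGRP and 80.4 ± 0.607 CPM per kb in IL-4. Junb and Jund overlapped in both groups, at 52.2 ± 7.53 and 49.6 ± 10.9 CPM per kb in IL-4+CGRP and 52.5 ± 3.38 and 61.1 ± 8.43 CPM per kb in IL-4. These 4 genes were well above the rest. Batf3, Fosl2 and Batf came next, at 17.5 ± 3.60, 14.9 ± 0.145 and 14.1 ± 1.80 CPM per kb in IL-4+CGRP, within their spread. In IL-4 they measured 22.7 ± 2.43, 12.4 ± 0.392 and 12.4 ± 2.53 CPM per kb, with Batf3 above the other two. Fos reached 7.60 ± 0.409 CPM per kb in IL-4+CGRP and 8.53 ± 0.0988 CPM per kb in IL-4, and Maff and Fosb were lowest in both groups.

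Of the summed length-scaled level of the 10 genes, Atf3 made up 48.5% ± 0.83 in IL-4+CGRP and 54.1% ± 0.921 in IL-4 (SD, n = 3 each). The 3 Jun genes made up 39.5% ± 0.784 in IL-4+CGRP and 35.4% ± 0.671 in IL-4, and the 3 Fos genes 4.95% ± 0.395 in IL-4+CGRP and 3.84% ± 0.245 in IL-4. Among Fos genes, Fosl2 thus stood above Fos in both groups, and the Jun genes together exceeded the Fos genes in every library. In summed level the Jun genes measured 181 ± 20.9 CPM per kb in IL-4+CGRP and 194 ± 11.7 CPM per kb in IL-4 (SD, n = 3 each). Their larger share in IL-4+CGRP thus went with a lower mean level, and the summed levels overlapped between groups. All of these shares contain the levels already tested above and were not tested again.

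**Figure D4:**
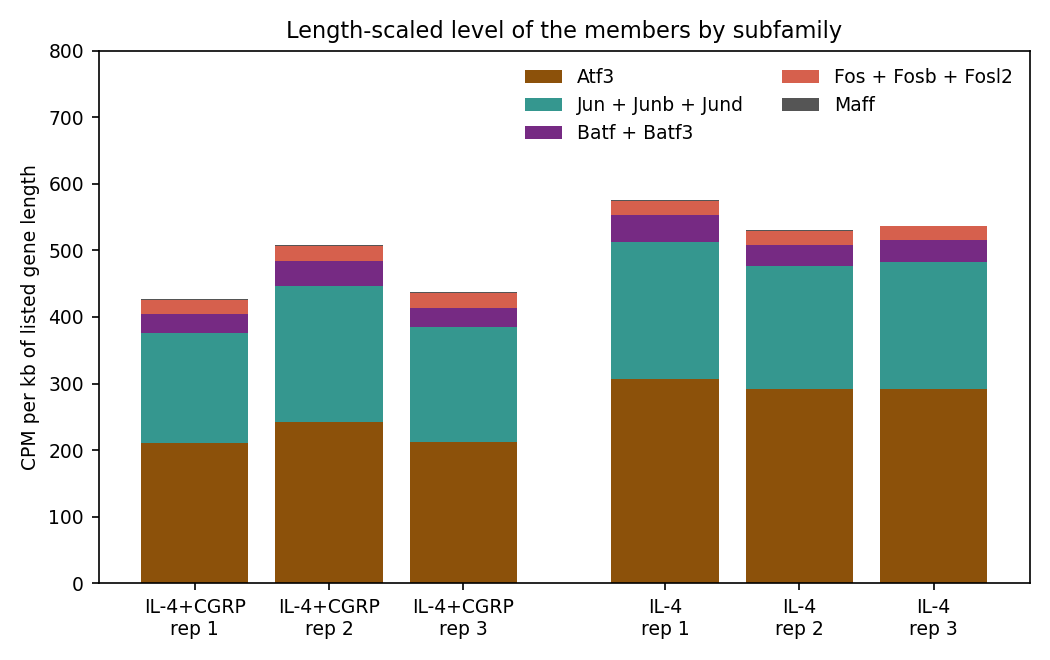
Stacked length-scaled level (CPM per kb of the listed gene length) of the 10 genes by subfamily in each library, with the IL-4+CGRP libraries left of the IL-4 libraries. The total is 427 to 509 in IL-4+CGRP libraries and 531 to 576 in IL-4 libraries, and the Atf3 segment is shorter in all 3 IL-4+CGRP libraries.

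The genes whose profiles over the 6 libraries were most like that of Atf3 were Ckb, Rfc4 and Ccnd1. The measure was the root mean squared difference of log2 CPM, each gene centred on its own mean, at 0.0218, 0.0306 and 0.0358. Genes chosen this way share the group difference of a called gene by selection, so their own differences are no separate result. Ckb measured 120 ± 7.05 CPM in IL-4+CGRP and 160 ± 2.86 CPM in IL-4 (SD, n = 3 each). Those nearest to Fosl2 were Il21r (0.0223), Mid1 (0.0233) and Anxa6 (0.0244), of which Il21r measured 145 ± 1.20 CPM in IL-4+CGRP and 123 ± 2.17 CPM in IL-4 (SD, n = 3 each). Of these, Rfc4 did not pass (edgeR adjusted p = 0.144), and the calls of Il21r, Mid1 and Anxa6 ended when replicate 1 or 3 of IL-4+CGRP or any IL-4 library was dropped (edgeR adjusted p up to 0.12, 0.125 and 0.116).

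The gene lists from here on were chosen with earlier results of these data known. Across all tested genes 2.32% were called higher and 1.54% lower, at a median log2 fold change of -0.0042. Of 42 other bZIP genes listed, 36 were tested, 3 rose and 0 fell, with a median log2 fold change of 0.05. With IL-4+CGRP replicate 2 dropped, 4 were called higher and 3 lower, and dropping any one library gave 0 to 4 higher and 0 to 3 lower. Bach1, a repressor that pairs with small Maf proteins, rose to 254 ± 3.23 CPM in IL-4+CGRP, against 214 ± 1.79 CPM in IL-4 (SD, n = 3 each; log2 fold change 0.25 ± 0.04, SE; edgeR adjusted p = 0.00901). Maf, a large Maf factor of macrophages, rose to 380 ± 28.0 CPM in IL-4+CGRP, against 301 ± 24.3 CPM in IL-4 (SD, n = 3 each; edgeR adjusted p = 0.0201). Creb5, a relative of ATF2, rose to 58.0 ± 6.28 CPM in IL-4+CGRP, against 44.5 ± 2.91 CPM in IL-4 (SD, n = 3 each; edgeR adjusted p = 0.0257). All 3 calls ended without IL-4+CGRP replicate 3, IL-4 replicate 2 or IL-4 replicate 3, those of Bach1 and Creb5 also without IL-4+CGRP replicate 1, and that of Creb5 without IL-4 replicate 1 and under limma-voom; that of Maf ended with the length and GC trend removed (edgeR adjusted p up to 0.101 for Bach1, 0.127 for Maf and 0.151 for Creb5 over all alternatives). Jdp2, a repressor of AP-1 that lies between Fos and Batf on chromosome 12, measured 20.6 ± 0.436 CPM in IL-4+CGRP and 17.8 ± 1.38 CPM in IL-4 (SD, n = 3 each; edgeR adjusted p = 0.238); it was picked out after its values were seen.

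AP-1 genes and proteins are switched on by MAP kinases, which phosphorylate Jun and the SRF cofactors at the Fos promoter. The MAP kinases are in turn switched off by dual-specificity phosphatases. Of 25 genes of the MAP kinase cascade 22 were tested. Of these 0 rose and 1 fell, against 2.32% and 1.54% of all tested genes. With IL-4+CGRP replicate 2 dropped, 3 of the list were called higher. The one that fell was Map2k3, a kinase upstream of p38, at 50.02 ± 1.53 CPM in IL-4+CGRP and 59.2 ± 0.710 CPM in IL-4 (SD, n = 3 each; log2 fold change -0.24 ± 0.05, SE; edgeR adjusted p = 0.029); the call held without IL-4+CGRP replicate 2 and ended with library totals alone and without any one of the other 5 libraries (edgeR adjusted p up to 0.135). Of 10 phosphatases 0 passed in edgeR, with 4 at an unadjusted p under 0.05 and 0 by DESeq2 and limma-voom; Dusp5, which acts on ERK, came nearest (log2 fold change 0.48 ± 0.12, SE; edgeR adjusted p = 0.0509), ahead of Dusp9 (-1.17 ± 0.32, SE; edgeR adjusted p = 0.0727). Dusp5 passed under 6 of 16 alternatives, among them leaving out IL-4+CGRP replicate 2 (edgeR adjusted p = 0.0371), and its adjusted p ran from 0.0176 to 0.215 over all of them. With IL-4+CGRP replicate 2 dropped, 2 phosphatases were called higher. Dusp9 was low, with 12, 11 and 8 counts in IL-4+CGRP replicates 1 to 3 and 21, 20 and 26 in IL-4 replicates 1 to 3. It passed as lower with the length and GC trend removed (edgeR adjusted p = 0.0405). Of SRF and 5 cofactors 0 passed in edgeR, with 0 at an unadjusted p under 0.05 and 0 by DESeq2 and limma-voom; Elk3 and Elk4 had log2 fold changes of 0.10 and 0.08.

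Of 33 other immediate early genes 32 were tested, with a median log2 fold change of -0.05. In this list 1 rose and 2 fell, against 2.32% and 1.54% of all tested genes. Dropping any one library gave 0 to 3 higher and 1 to 5 lower, with the most of both when IL-4+CGRP replicate 2 was dropped; 4 were lower with the length and GC trend removed. Plk2, a polo-like kinase, fell to 172 ± 4.32 CPM in IL-4+CGRP, against 264 ± 7.60 CPM in IL-4 (SD, n = 3 each; log2 fold change -0.62 ± 0.05, SE; edgeR adjusted p = 2.52e-05). Egr2, a zinc finger factor of alternatively activated macrophages, fell to 208 ± 5.83 CPM in IL-4+CGRP, against 243 ± 9.22 CPM in IL-4 (SD, n = 3 each; edgeR adjusted p = 0.0288). Ier3, a stress-inducible survival gene, rose to 108 ± 5.34 CPM in IL-4+CGRP, against 89.0 ± 2.77 CPM in IL-4 (SD, n = 3 each; edgeR adjusted p = 0.0173). Plk2 held without any one library. The call of Egr2 ended with library totals alone and when replicate 1 or 3 of IL-4+CGRP or replicate 2 or 3 of IL-4 was dropped, and that of Ier3 when replicate 1 of IL-4+CGRP or any IL-4 library was dropped (edgeR adjusted p up to 0.165 and up to 0.136 over the alternatives).

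Among 10 genes for factors that share composite sites with AP-1, the median log2 fold change was 0.08. In this list 2 rose and 0 fell, against 2.32% and 1.54% of all tested genes. Dropping any one library gave 1 to 4 higher, with 4 when IL-4+CGRP replicate 2 was dropped, and 4 were also higher with no count filter. Ets2, an ETS factor that cooperates with AP-1, rose to 25.8 ± 0.343 CPM in IL-4+CGRP, against 17.6 ± 0.534 CPM in IL-4 (SD, n = 3 each; log2 fold change 0.55 ± 0.07, SE; edgeR adjusted p = 0.00142). Runx3, a Runt factor, rose to 8.07 ± 0.427 CPM in IL-4+CGRP, against 5.35 ± 0.771 CPM in IL-4 (SD, n = 3 each; edgeR adjusted p = 0.0263). The Runx3 call ended under DESeq2 and without IL-4+CGRP replicate 1 or 3 or IL-4 replicate 1 or 3 (edgeR adjusted p up to 0.147).

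Genes that textbooks name as AP-1 targets moved in both directions: of 21 listed, 18 were tested, with a median log2 fold change of -0.02. Of these 7 rose and 2 fell, against 2.32% and 1.54% of all tested genes. Ptgs2 (cyclooxygenase 2) had the greatest rise of the list, with 7.22, 7.85 and 8.06 CPM in IL-4+CGRP replicates 1 to 3 and 2.18, 2.02 and 1.83 CPM in IL-4 replicates 1 to 3 (log2 fold change 1.94 ± 0.14, SE; edgeR adjusted p = 1.44e-05). Vegfa, the angiogenic growth factor, rose by 0.89 ± 0.08 (SE) on the log2 scale, and Mmp14, a membrane-bound protease, by 0.37 ± 0.05 (SE). Mmp12, macrophage elastase, fell to 103 ± 0.491 CPM in IL-4+CGRP, against 139 ± 3.93 CPM in IL-4 (SD, n = 3 each; log2 fold change -0.43 ± 0.05, SE; edgeR adjusted p = 5.86e-04). These 4 calls held without any one library, while 4 to 7 genes of the list were called higher when a library was left out, with the fewest without IL-4 replicate 2 or 3. The lower calls of the list numbered 4 when IL-4+CGRP replicate 2 was dropped and 2 when any other library was.

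Of 10 osteoclast genes listed, the Fos target Nfatc1 among them, 8 were tested, with a median log2 fold change of -0.13. Of these 4 fell and 0 rose, against 1.54% and 2.32% of all tested genes. Ocstamp and Dcstamp, membrane proteins needed for cell fusion, had log2 fold changes of -1.80 ± 0.19 and -1.24 ± 0.19 (SE; edgeR adjusted p = 2.15e-04 and adjusted p = 0.0028). Acp5, tartrate-resistant acid phosphatase, fell to 63.4 ± 2.65 CPM in IL-4+CGRP, against 76.3 ± 1.31 CPM in IL-4, and Atp6v0d2, a proton pump subunit, to 647 ± 16.0 CPM in IL-4+CGRP, against 740.4 ± 21.6 CPM in IL-4 (SD, n = 3 each; edgeR adjusted p = 0.0173 and adjusted p = 0.0263). Nfatc1 itself measured 94.4 ± 10.5 CPM in IL-4+CGRP and 89.7 ± 6.92 CPM in IL-4 (SD, n = 3 each; edgeR adjusted p = 0.731); it was picked out after its values were seen. Without IL-4+CGRP replicate 1 or 3, or any one IL-4 library, the Acp5 and Atp6v0d2 calls ended (edgeR adjusted p up to 0.105 and up to 0.141), leaving 2 lower; Atp6v0d2 also lost its call with library totals alone.

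**Figure D5:**
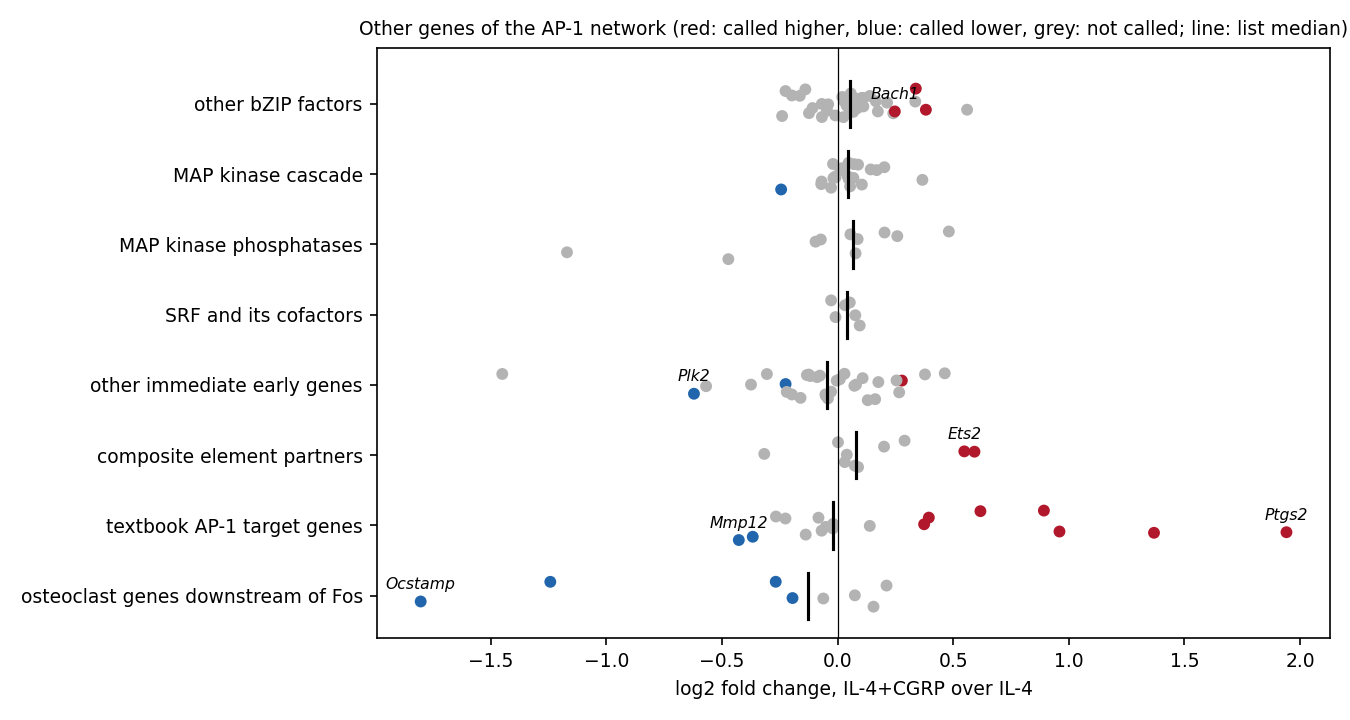
Log2 fold change, IL-4+CGRP over IL-4, of each tested gene in 8 lists around AP-1 (points, jittered vertically; red for called higher, blue for called lower, grey for not called) with the median of each list (black line). List medians lie between -0.13 and 0.08, and single genes run from -1.80 for Ocstamp to 1.94 for Ptgs2.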

How the data were processed

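Per the submitters' processing notes, reads were handled with fastp, HISAT2 and StringTie on mouse build GRCm39; for their versions, the annotation, the counting step and its use of strand: not given in the sources used here. The deposited table holds estimated counts per gene for 6 library columns: between 23.3% and 26.6% of each library's positive values had a fractional part (tolerance 1e-06), and all were rounded before testing. The authors' 2 columns of group means were used only as a check, and 0 other columns of per-sample values were left unassigned.

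Genes kept by filterByExpr (13260, holding 99.9% of counts) were scaled with TMM factors and fitted with the edgeR 4.0.16 quasi-likelihood test in R 4.3.3, two-sided with robust dispersion and without covariates, IL-4+CGRP set against IL-4; p-values were adjusted over all tested genes. SEs are the log2 fold change over the square root of F, and 95% intervals use the fit's t quantile and are not adjusted for multiple tests. Intervals and floors cover these libraries or counting error only. GC content came from GENCODE M21 transcripts, found for 98.1% of tested genes. Where a symbol had 2 rows (Ddit3), the one with more counts was used.

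The genes and lists were chosen with earlier results of these data known. Named are all 10 genes, up to 4 called genes per list by smallest p (or 2 where none passed), and the 3 most similar profiles per called gene; others are marked as picked after seeing values. Tested on simulated counts of the same 13260 genes, the fit found 38% of 1.3-fold, 60% of 1.5-fold, 84% of 2-fold and 98% of 4-fold changes (50 genes each). It called 0.115% of the genes left as they were. The simulated counts were drawn independently, with no library set apart and no trend with gene length or GC content. These shares may therefore not hold for the real libraries, where IL-4+CGRP replicate 2 stood apart. Alternatives were 3 other scalings, DESeq2 1.42.0, limma-voom (limma 3.58.1), and testing every counted gene, or genes averaging 50 counts or more. Further ones were a dispersion fit that was not robust, a replicate block, and leaving out each library. Removing the length and GC trend, which was added after seeing the data, is also counted among the 16 alternatives.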

Additional observations from a re-analysis of the deposited data

How the results depend on the processing

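Across 16 alternatives the Atf3 call held in each, with log2 fold changes of -0.49 to -0.39. Over all genes, 307 higher and 204 lower became 584 and 434 with no count filter, 140 to 915 and 80 to 950 when 1 library was left out (the highest without IL-4+CGRP replicate 2, the lowest without IL-4 replicate 2 for higher and without IL-4 replicate 3 for lower), and 411 and 531 with the length and GC trend removed. The share called higher was 60.1%, 71.2% with library totals alone and 43.6% with that trend removed. Of the 10 genes, 1 higher and 1 lower became 0 to 1 higher and 1 to 3 lower when a library was left out, 2 lower with no count filter and 3 lower with the trend removed. Log2 fold changes when a library was left out were 0.24 to 0.27 for Fosl2, -0.13 to 0.069 for Junb, -0.50 to -0.19 for Jund, -0.56 to -0.29 for Batf3 and -0.10 to 0.33 for Maff. Batf3 passed with no count filter (-0.38), and Jund (-0.38) and Batf3 (-0.36) with the trend removed. With library totals alone Jun was at 0.00018 and Junb at 0.019. The cause of these changes was not tested. Of 22 called genes named beside the 10, 10 kept their call under every alternative, 12 lost it under at least 1, and 0 of all 27 named reversed.

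With the replicate number as a block, 176 genes were higher and 86 lower; of the 10 genes 0 were then higher, Fosl2 keeping a log2 fold change of 0.26 (edgeR adjusted p = 0.07). The calls of Bach1, Maf, Map2k3, Egr2, Ier3, Runx3, Acp5, Atp6v0d2, Il21r, Mid1 and Anxa6 also ended under the block (edgeR adjusted p 0.0719 to 0.123). Deviations of same-numbered libraries from their group mean correlated at -0.188, -0.182 and 0.13. Of 3 IL-4+CGRP libraries, 1 correlated best with its own number. With deviations centred within groups of 3 libraries, these values cannot tell whether the numbers pair the samples. Fosb, at 0 to 10 counts a library, did not pass the count filter of the main fit. All 10 genes were tested with no count filter and under DESeq2, and Fosb was called in neither.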

Other observations

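Gm11175, annotated opposite Jund, had over 20 counts in IL-4+CGRP replicates 1 and 3 and under 5 in the other 4 libraries, a pattern shared by 2 of the 57180 genes in the table; it was found after seeing the data, and its origin was not tested.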
